A study of Homo sapiens with 6 samples.

Results

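Regions called only in both si-N6AMT1 libraries are stretches of the genome at which a 6mA peak was found in each of the 2 immunoprecipitated libraries from N6AMT1 knockdown cells and in neither of the 2 control libraries. They were chosen by the peak calls themselves. The peaks of the 4 libraries were merged wherever they shared at least 1 bp, which gave 72537 regions, and 4251 of these met the rule, or 5.86% of all regions. The opposite pattern, a peak in both control libraries and in neither si-N6AMT1 library, was found at 1904 regions, or 2.62%. Another 12132 regions were called in all 4 libraries.

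N6-methyladenine (6mA) is an adenine that carries a methyl group on its amino nitrogen. The mark is well known in bacteria, where it takes part in restriction, mismatch repair and replication, and its level in mammalian nuclear DNA is debated. In 6mA-IP-seq, fragmented and denatured genomic DNA is pulled down with a 6mA antibody and sequenced, and a peak caller then finds places where fragments pile up over the background. N6AMT1 encodes a methyltransferase that also modifies a glutamine of the translation release factor, and the study examined it as a writer of 6mA in breast cancer.

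All libraries came from MDA-MB-453, an established breast cancer cell line. Control cells received scrambled siRNA and si-N6AMT1 cells received siRNA against N6AMT1, each at 10 nM for 48 h. Each group had 2 immunoprecipitated libraries, which the labels call biological replicates, and an input library whose files were not used here. The lists hold no measure of the N6AMT1 transcript, so the knockdown itself was not checked here, and a bulk library cannot tell more cells with a mark from more marks in each cell.

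The control lists held 30451 and 33410 peaks and the si-N6AMT1 lists 38847 and 40844. The background that the caller applied across the genome, which rises with the number of fragments, was 1.05 fragments in control replicate 1 and 1.36 in replicate 2, and si-N6AMT1 replicates 1 and 2 had 1.41 and 1.53. Its mean was 1.21 ± 0.223 in control and 1.47 ± 0.0800 in si-N6AMT1 (SD, n = 2), a difference of 0.265 with an exact two-sided permutation p of 0.333, the smallest p that this test allows with 4 libraries. Both si-N6AMT1 libraries were thus the more deeply covered and had the longer lists, and the part of depth in the calls cannot be told apart from that of the siRNA. When each list was shortened to its 30451 peaks of highest −log10 p, 2550 regions were called only in both si-N6AMT1 libraries and 2571 only in both control libraries. The excess of 4251 over 1904 was therefore not seen with lists of equal length.

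A few of these regions show what kind of sequence the peaks sat on. The region with the highest fold in the weaker of its libraries is given as the 150 bases around its summit, the position of highest pileup, on the forward strand of hg19. Capitals mark unbroken stretches of at least 10 purines (A or G) or 10 pyrimidines (C or T).
chr1:204031230-204031379: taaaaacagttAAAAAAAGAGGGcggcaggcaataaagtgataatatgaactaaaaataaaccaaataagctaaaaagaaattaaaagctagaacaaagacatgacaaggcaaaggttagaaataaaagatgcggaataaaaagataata
The region, chr1:204031082-204031531, held 1 such stretch around its summit and was rich in adenine. It lay in intergenic sequence, with folds of 12.8 and 12.2 in si-N6AMT1 replicates 1 and 2.

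Other regions of the set joined a short word to an adenine run. CCAGCCTG is the reverse complement of CAGGCTGG, a motif that the study named in its 6mA peaks, and it is also part of the Alu element, an abundant primate retrotransposon that ends in an adenine-rich tail. No annotation of repeats was used here, so counts of the word are counts of letters and not calls of Alu elements.

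A further kind of sequence, alternating C and A or T and G, is shown by a region in an intron of RPTOR, with stretches of at least 6 TG units in capitals. RPTOR encodes raptor, the scaffold subunit of the mTORC1 growth kinase.
chr17:78901430-78901579: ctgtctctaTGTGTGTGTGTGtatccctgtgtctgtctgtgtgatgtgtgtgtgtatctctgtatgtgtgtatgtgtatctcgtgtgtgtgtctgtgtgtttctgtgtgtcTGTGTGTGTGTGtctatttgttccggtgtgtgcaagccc
The region, chr17:78901223-78901694, had fold enrichments of 12.8 and 9.50 in the si-N6AMT1 libraries, and the nearest control peak was 52572 bp away.

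The peaks of these regions were moderate in strength. Fold enrichment, the pileup over the local background with 1 added to each, had a median of 6.62 in si-N6AMT1 replicate 1, with a range from 2.94 to 13.7. In replicate 2 the median was 6.33, with a range from 2.69 to 16.2, and the mean of the medians was 6.48 ± 0.207 (SD, n = 2). These values chose the members and are given as a description. The median pileup at the summit was 17 fragments in each library, so a typical call rests on few fragments. The highest pileups were 354 and 387 fragments in replicates 1 and 2, and the highest backgrounds 120 and 143. Regions called in all 4 libraries had higher median folds in the same libraries, 8.45 and 8.25.

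Of the 8 regions with the highest fold in the weaker library, 5 lay in intergenic sequence and 3 in introns. The highest single value was 16.2, in si-N6AMT1 replicate 2, in an intron of the noncoding gene LINC00939 at chr12:126453664-126454192, where replicate 1 had 10.4. The pileups there were 24 and 40 fragments, so the libraries differed, and the nearest control peak was 2326 bp away. A purine or pyrimidine tract of at least 20 bases was present in 6 of the 8 windows, against 43.9% of all members and 39.6% of all regions.

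The rule asks that the peaks of both libraries overlap, so their closeness is a description. The summits of the si-N6AMT1 peaks lay a median of 49 bp apart, and 71.6% were within 100 bp. In 3821 of the 4251 regions, or 89.9%, each peak covered at least 50% of the other. Across regions, Pearson's r between the log2 fold of the replicates was 0.488, against 0.697 in regions called in all 4 libraries, as a description over points that share their libraries. The regions had a median width of 502 bp, from 343 to 2762 bp, and covered 2.43 Mb in all.

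**Figure D1:**
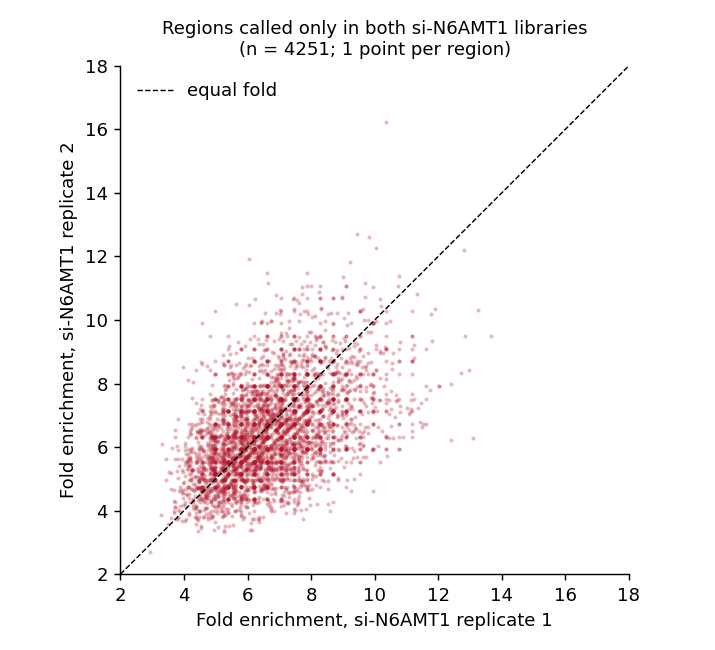
Fold enrichment of each of the 4251 regions in si-N6AMT1 replicate 1 (x axis) and replicate 2 (y axis), 1 point per region, with a dashed line at equal fold. Most points lie around the medians of 6.62 and 6.33, and 13 regions reached a fold of 10 or more in both libraries.

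The share of regions that were members fell as the strength of the peaks rose. Regions called in both si-N6AMT1 libraries were ordered by the lower of their −log10 p values in the pair, where the caller's threshold was 5. From 5 to 6, 44.5% of the regions called in both si-N6AMT1 libraries had no control peak. The share was 22.3% from 10 to 15, 2.06% from 20 to 30, and 0.0921% at 30 or more, where 1 of 1086 regions was a member. Regions called in both control libraries showed the same fall, from 27.6% without a si-N6AMT1 peak in the lowest class to 0.942% from 20 to 30 and 0 of 951 at 30 or more. At a −log10 p of 30 or more in both libraries, 1 region was thus particular to a group, a member. Within the lists of si-N6AMT1 replicates 1 and 2, 57 and 77 member peaks were among the top 10% by −log10 p.

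**Figure D2:**
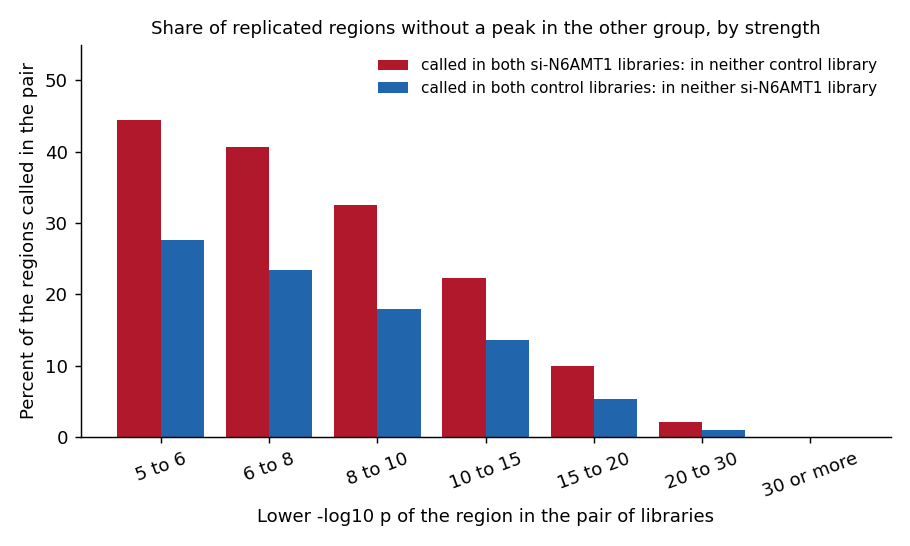
Percent of the regions called in both libraries of a group that had no peak in the other group (y axis), by the lower −log10 p of the region in that pair (x axis), for si-N6AMT1 (red) and control (blue). Both shares fall with strength, and at every class below 30 the si-N6AMT1 share is the higher, from 44.5% against 27.6% to 2.06% against 0.942%.

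The pileups were also set against the depth of the control libraries. When the pileup and background of si-N6AMT1 replicate 1 were scaled down to the depth of control replicate 1, 96.4% of the regions (95% Wilson interval 95.8 to 96.9) still passed the caller's p of 1e-05. Scaled to control replicate 2, 99.5% passed. For si-N6AMT1 replicate 2 the shares were 92.3% and 97.8%. Because regions were chosen for a high pileup in these same libraries, the shares are a description and lie above what fresh libraries would give.

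At the edge of the rule, calls turned on small differences. The 3 weakest members had a lower −log10 p of 5.03 to 5.05 and included an intron of BBS9, a Bardet-Biedl syndrome gene, and an intron of FLVCR1, a heme exporter gene. In the BBS9 region, chr7:33341640-33342861, the pileups were 11 and 12 fragments. Just outside lay regions in introns of USP15, CHD2 and PFKM, each with 2 si-N6AMT1 peaks and 1 control peak at a −log10 p of 5.01. The CHD2 region had si-N6AMT1 folds of 7.38 and 6.73, above the medians of the members, and a control fold of 3.76. Among 5733 regions with both si-N6AMT1 peaks and 1 control peak, 62 had a control −log10 p under 6.

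Most members stood apart from any control peak. The median distance to the nearest control peak was 14643 bp, 327 regions (7.69%) had a control peak within 1000 bp and 1075 (25.3%) within 5000 bp. Regions called only in both control libraries lay a median of 10844 bp from the nearest si-N6AMT1 peak, with 9.03% within 1000 bp, beside longer si-N6AMT1 lists. The median distance from a member to the next was 366131 bp, and 139 had the next within 10000 bp. Whether members cluster more than random positions would was not tested.

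The sequence under the summits differed sharply from the genome around it. In 200-bp windows centred on the summit, 1382 of 4251 regions, or 32.5% (95% Wilson interval 31.1 to 33.9), held a run of at least 10 adenines or thymines. Windows 1000 bp to either side held such a run in 7.06% of cases, and windows spaced evenly along the genome in 6.66%. A purine or pyrimidine tract of at least 20 bases was found in 43.9% of summit windows, 5.12% of flanking windows and 4.71% of genome windows. The purine-richer strand was a median of 66.5% purine at the summits and 56.5% in the flanks. These intervals cover counting error over regions only. The same features were common in all peaks: 29.9% of all regions held an adenine or thymine run and 39.6% a purine tract.

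**Figure D3:**
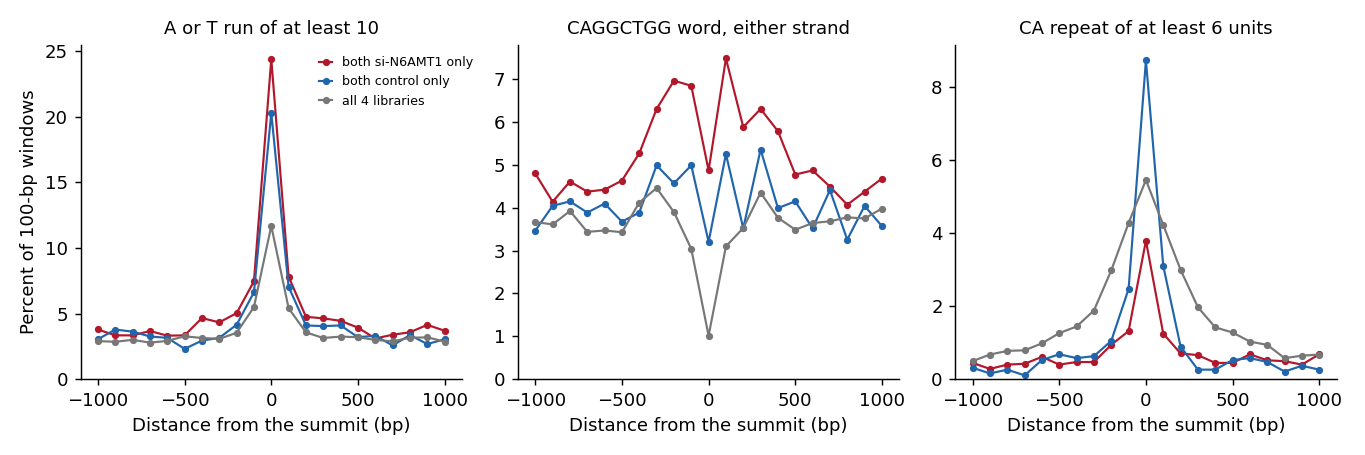
Percent of 100-bp windows (y axis) that held an A or T run of at least 10 bases, the word CAGGCTGG on either strand, or a CA repeat of at least 6 units, against the distance of the window from the summit (x axis, bp), for regions called only in both si-N6AMT1 libraries (red), only in both control libraries (blue) and in all 4 libraries (grey). The run and the repeat peak at the summit, at 24.4% and 3.79% in the red regions, while the word is more frequent beside the summit, with 7.48% at 100 bp, than at it, with 4.87%. At 1000 bp to either side the word is in 4.80% and 4.68% of the red windows, close to its share at the summit.

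Set beside regions called only in both control libraries, the members held more of the CAGGCTGG word and fewer CA repeats. CAGGCTGG on either strand was present in 14.0% of member windows (95% Wilson interval 13.0 to 15.1), 9.56% of control-only windows (8.32 to 11), 3.92% of windows called in all 4 libraries and 12.1% of all regions. Windows spaced evenly along the genome held the word in 8.45% of cases, and windows 1000 bp to either side of member summits in 9.02%. The share in regions called in all 4 libraries was thus below that of the genome. CA repeats of at least 6 units on either strand were present in 4.94% of member windows (4.33 to 5.63) and 10.9% of control-only windows (9.60 to 12.4). At the separate summits of the 2 libraries the word was in 14.1% ± 0.0333 of member windows (SD, n = 2) and CA repeats were in 4.91% ± 0.183. Control-only regions at their own summits gave 9.30% ± 0.149 and 10.8% ± 0.111. This SD comes from reading the same regions at 2 nearby summits and measures the placement of summits, not the spread between replicate sets of regions. Both sets of regions were chosen on the calls of the same libraries, so no test was made on the differences.

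Strength was not the same in each set, and the comparison was repeated within classes of the best −log10 p of the region. From 10 to 15, the word was in 15.3% of 1965 member windows and 9.76% of 871 control-only windows, and CA repeats were in 4.22% and 7.92%. From 15 to 20, the word was in 11.9% and 10.3%, and CA repeats were in 6.77% and 15.4%. From 8 to 10, where there were 505 members and 170 control-only regions, the word was in 17.4% and 8.24%, but CA repeats were in 3.17% of members and 2.35% of control-only regions, so the lower share of CA repeats did not hold in every class. With lists of equal length, the word was in 11.6% of member windows and 9.22% of control-only windows, and CA repeats were in 5.65% and 9.49%. With the rule applied to 3 libraries, the difference in the word depended on the library left out. The word was in 12% of members and 11.7% of control-only regions without control replicate 1, and in 12% and 12.1% without control replicate 2. Without si-N6AMT1 replicate 1 it was in 16.4% and 8.62%, and without replicate 2 in 17.2% and 9.09%. CA repeats were the lower in members in all 4 cases, at 4.93% to 5.75% against 9.34% to 10.3%.

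The comparison was also made on regions called in 1 library alone, which the rule left out. These regions are not members, but they were defined by the same peak lists, with the same differences in length and depth. They are therefore not independent evidence for the differences seen in the members. The word CAGGCTGG was in 13.0% of the windows called in control replicate 1 alone, 12.4% in control replicate 2 alone, 18.5% in si-N6AMT1 replicate 1 alone and 17.3% in si-N6AMT1 replicate 2 alone. Both si-N6AMT1 values lay above both control values, by 5.19 percentage points on average. Adenine or thymine runs were in 31.3% and 30.2% of the control windows and in 37.5% and 36.8% of the si-N6AMT1 windows. CA repeats were in 10.2% and 8.93% of the control windows and in 6.17% and 5.24% of the si-N6AMT1 windows, so that here the si-N6AMT1 libraries were the lower. Purine tracts were in 37.8%, 31.1%, 43.6% and 38.8% in the same order of libraries, with replicate 1 above replicate 2 in each group.

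In all, 9 features were compared in this way. The groups did not overlap in 6 of them, namely CAGGCTGG, GGCTGGAGT, adenine or thymine runs, CA repeats, purine tracts and GATC. With labels assigned at random, a feature would separate the groups in this way with a probability of 0.333. CAGGCTGG overlaps GGCTGGAGT and long adenine runs are also purine tracts, so the 6 are not separate results. The exact two-sided permutation p was 0.333 for each of the 6, the smallest that this test allows with 2 libraries against 2, and 0.5 after Benjamini-Hochberg adjustment, so none passed the threshold. GATC, the site that bacterial Dam methylase recognizes, was in 41.0% and 40.5% of the control windows and 44.5% and 43.2% of the si-N6AMT1 windows, while in the members it was in 39.2%, close to 39.3% of genome windows. Median GC content, the share of promoter summits and the share of intergenic summits overlapped between the groups. With lists of equal length, the groups still did not overlap in the other 5 features. The differences, si-N6AMT1 minus control, were then 4.83 percentage points for CAGGCTGG, 4.73 for GGCTGGAGT, 8.67 for adenine or thymine runs, -2.49 for CA repeats and 12.4 for purine tracts. The GATC difference turned to -0.344, with overlap of the groups. Depth moved with the groups in the same direction, and its part in these differences was not tested.

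**Figure D4:**
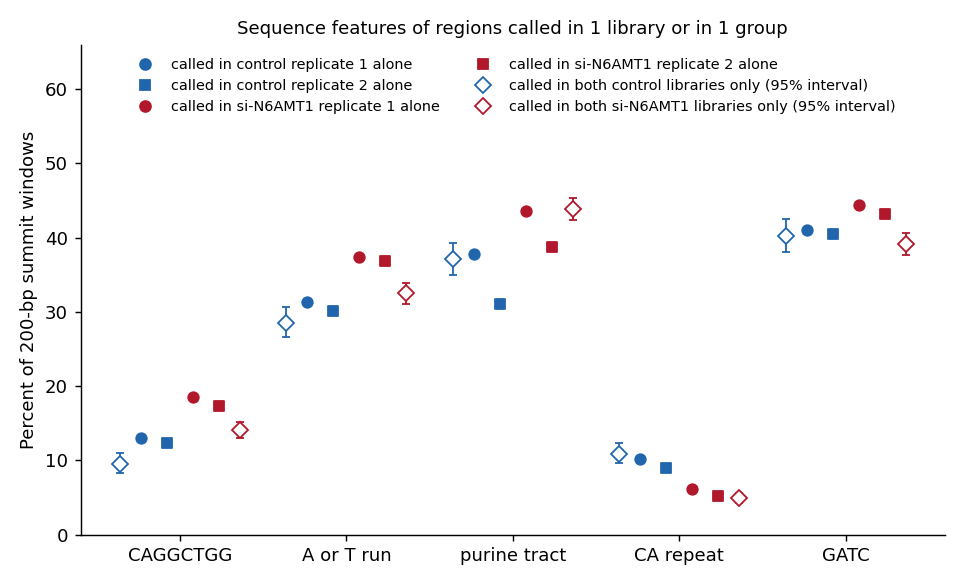
Percent of 200-bp summit windows (y axis) that held each of 5 sequence features (x axis), for regions called in 1 library alone (filled points, blue for control and red for si-N6AMT1) and for regions called in both libraries of 1 group and neither of the other (open diamonds, with 95% Wilson intervals). For CAGGCTGG the filled control points lie at 13.0% and 12.4% and the si-N6AMT1 points at 18.5% and 17.3%, and for CA repeats the order is turned, with 10.2% and 8.93% against 6.17% and 5.24%.

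The word was often followed by an adenine run. In windows of 600 bp around the summit, 1325 members (31.2%) held CCAGCCTG on either strand, and in 674 (15.9%, 95% Wilson interval 14.8 to 17) an adenine run on the same strand followed it within 60 bp. The median gap between word and run was 24 bp and the median run 16 bases. The same arrangement was present in 9.93% of control-only regions, 6.11% of regions called in all 4 libraries and 13.3% of all regions. Read on the strand of the word, 78.1% of the words lay upstream of the summit in members and 78.5% in control-only regions, so the side was shared. Among the 597 member windows of 200 bp with CAGGCTGG, 413, or 69.2%, also held an adenine or thymine run. The share was 66.3% in all regions and 57.7% in control-only regions, so the pairing was common to the peaks.

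**Figure D5:**
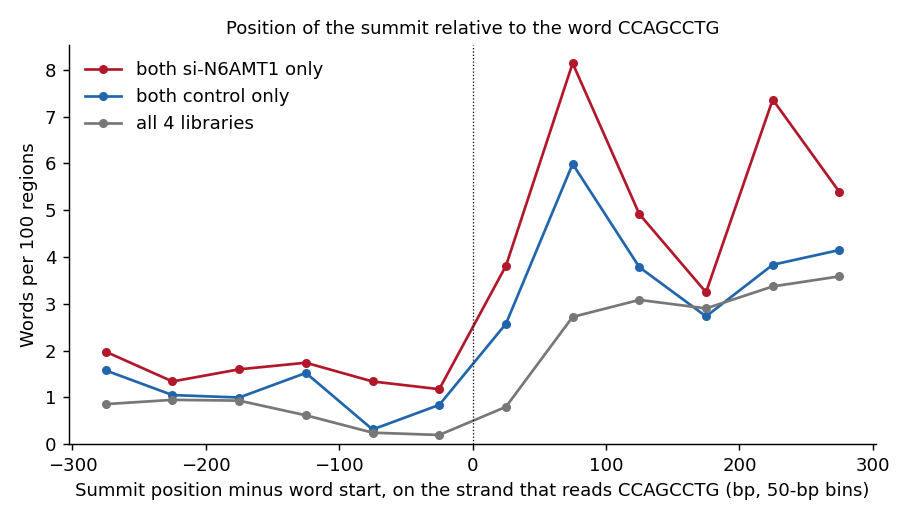
Number of CCAGCCTG words per 100 regions (y axis) by the position of the summit minus the start of the word, on the strand that reads the word (x axis, bp, in 50-bp bins), for regions called only in both si-N6AMT1 libraries (red), only in both control libraries (blue) and in all 4 libraries (grey). In the red regions the counts rise to 8.14 words where the summit lay 50 to 100 bp past the word and again to 7.36 at 200 to 250 bp, against 1.18 at 0 to 50 bp before it.

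Among all words of 8 letters present in at least 1% of member windows, those most raised over all regions were modest in ratio, with the 10 highest between 1.54 and 1.63. ACCTGTAG was in 1.04% of member windows and 0.636% of all regions, a ratio of 1.63. AGACCCTG was in 2.89% and 1.84%, a ratio of 1.57. The lowest ratios belonged to words of the CA repeat type, with ACACACCA in 1.18% of member windows and 2.32% of all regions, a ratio of 0.507.

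In position, the members resembled the other regions. Summits lay in introns in 2358 regions (55.5%), in intergenic sequence in 1781 (41.9%), within 1000 bp of a transcription start site in 86 (2.02%, 95% Wilson interval 1.64 to 2.49) and in exons in 26 (0.612%). Among all regions the shares were 56.8%, 40.4%, 2.07% and 0.750%. Median GC content at the summits was 36% in members, 35% in control-only regions and 39% in regions called in all 4 libraries.

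The 86 promoter members included genes of several kinds, and the 12 protein-coding promoters of highest fold were taken for naming. KCNC2, a voltage-gated potassium channel gene, had folds of 8.70 and 9.89 at chr12:75601939-75602351, with the summit 390 bp upstream of a start site. SMARCD3, which encodes a subunit of the BAF chromatin remodeling complex, had 9.94 and 8.31 at chr7:150973062-150973634, with the summit 427 bp downstream. Their summit sequences on the forward strand are shown, with capitals as for the first region shown.
KCNC2, chr12:75602099-75602248: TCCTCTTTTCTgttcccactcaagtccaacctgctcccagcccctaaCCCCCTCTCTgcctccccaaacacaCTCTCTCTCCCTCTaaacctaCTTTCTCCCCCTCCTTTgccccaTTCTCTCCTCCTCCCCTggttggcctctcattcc
SMARCD3, chr7:150973318-150973467: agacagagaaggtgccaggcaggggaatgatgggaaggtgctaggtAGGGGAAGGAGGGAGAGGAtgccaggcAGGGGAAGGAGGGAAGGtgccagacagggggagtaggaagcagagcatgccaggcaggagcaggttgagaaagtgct
AHNAK2, chr14:105419867-105420016: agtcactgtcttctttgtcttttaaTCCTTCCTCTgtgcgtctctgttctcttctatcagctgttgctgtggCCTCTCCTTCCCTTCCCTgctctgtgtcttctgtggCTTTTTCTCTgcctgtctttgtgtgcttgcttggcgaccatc
AHNAK2, which encodes a very large scaffold protein, had folds of 8.12 and 8.20. None of the 3 windows held an unbroken tract of 20 bases, and each held shorter stretches of pyrimidines or, in SMARCD3, of purines.

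Other promoters with known roles followed. CSF2RB, the shared receptor chain of the cytokines GM-CSF, IL-3 and IL-5, had folds of 8.70 and 8.05 with the summit 929 bp upstream. TYRO3, a receptor tyrosine kinase of the TAM family, had 7.87 and 8.31, and its window held both an adenine or thymine run and a purine tract. PHOX2A, a transcription factor of autonomic neurons, had 7.55 and 10.6, with a control peak 2077 bp away. DKK3, a secreted protein of the Dickkopf family, stood out by its background of 4.47 and 4.43 fragments, against 1.41 and 1.53 across the genome, and pileups of 39 and 44. NDUFA4L2, ZNF493, AWAT1 and SHISAL2A made up the list.

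Among the 26 exonic members, 8 in protein-coding genes were taken by the same order. TRIM67, a tripartite-motif ubiquitin ligase gene, led with folds of 10.8 and 9.31 at chr1:231351781-231352221, in a window with a CA repeat and a purine tract. ZC3H13, which encodes a subunit of the complex that writes N6-methyladenosine into RNA, followed with 9.64 and 8.30 at chr13:46549437-46549981. VANGL2, a planar cell polarity gene, had 8.39 and 7.66, and PPIH, a cyclophilin of the spliceosome, had 7.94 and 6.89. PGLYRP3, CACNG8, KCNK6 and POMK were the others. A purine tract was present in 6 of these 8 exonic windows, against 43.9% of all members and 39.6% of all regions. The 8 were picked by fold, and tracts were more frequent in stronger members. Their share was 25.6% at a best −log10 p of 6 to 8 and 61.3% at 20 to 30.

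The study turned to negative regulators of the cell cycle. The 8 that it named held 2 members among 20 regions, or 10%, against 5.86% of all regions, a difference that was not tested. Both were in RB1, the retinoblastoma tumor suppressor gene that holds back entry into S phase. The first, chr13:48898428-48899238, had folds of 5.28 and 6.36, with the nearest control peak 4887 bp away. The second had 3.61 and 4.69, below the medians of all members. The study chose this list with these samples in view, so its count is not independent evidence. The study itself reported lower 6mA at cell cycle inhibitor genes after knockdown, from read tracks and quantitative PCR of immunoprecipitated DNA. Across the genome, it reported that most of the 6mA peaks that changed had lower levels, from a comparison of levels between the groups. Those results measure signal, whereas membership here is the presence or absence of calls. Whether the tracks and quantitative PCR cover the sites of these 2 members was not tested. The summit sequence of the first is shown, with capitals as above.
RB1, chr13:48898910-48899059: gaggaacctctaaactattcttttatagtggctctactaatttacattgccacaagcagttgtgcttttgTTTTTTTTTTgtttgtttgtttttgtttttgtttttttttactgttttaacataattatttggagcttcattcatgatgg
It held a run of 10 thymines. RB1 held 12 regions in all, 0 of them called only in both control libraries, against 2.62% of all regions. Both members were intronic.

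Wider sets of genes held members in proportions near the background of 5.86%. Regions called only in both control libraries made up 2.62% of all regions. The 49 core cell cycle genes held 4 members among 58 regions, or 6.90%, in RBL2, RBL1 and E2F5. RBL1 and RBL2 encode the pocket proteins related to RB1, and the RBL2 region had folds of 6.63 and 6.33. The 46 genes of insulin and PI3K signaling held 8 among 143, or 5.59%, of which 4 were in RPTOR, which had 9 regions and 0 called only in control. The 72 genes of membrane trafficking held 26 among 395, or 6.58%, spread over 16 genes, with 4 each in DNM3, a dynamin gene, and AP3B1, an adaptor subunit gene. The 22 ephrin and Eph receptor genes held 2 among 51, in EPHB1 and EPHA4.

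ERBB receptors and their neuregulin ligands held 5 members among 61 regions, or 8.20%, and 0 control-only regions, against 5.86% and 2.62% of all regions. None of the 5 was in a receptor gene. NRG3 held 2, and its intronic region chr10:84499634-84500178 was among the 8 of highest fold anywhere, at 10.4 and 10.3, with pileups of 24 and 25. NRG4 held 2 and NRG2 held 1, with folds of 4.54 and 5.60. The list of steroid receptors and luminal factors held 4 among 51, of which 2 were in PGR, the progesterone receptor gene.

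Genes that write or remove adenine methylation held 2 members among 29 regions, in METTL4 and VIRMA. METTL4 encodes an adenine methyltransferase, and its region had folds of 6.21 and 7.52. DNA repair genes held 7 among 111, or 6.31%, including 2 in RAD51B, a gene of homologous recombination, and 1 in XRCC4, a gene of end joining. Cadherin genes held 11 among 333, or 3.30%, the lowest share of the lists, with 3 each in CDH18 and CDH12.

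Genes with regions of any kind, members included, were longer than the typical gene. At least 1 member lay in 1518 of 20176 protein-coding genes, or 7.52%, and these had a median length of 131 kb. The 8957 protein-coding genes with a region of any kind had a median of 71.0 kb, and all protein-coding genes 27.2 kb. DLG2, a synaptic scaffold gene of 2173 kb, held 12 members, the most of any gene, and 1 control-only region among 123 regions. AGBL4 and NLGN1, the latter a synaptic adhesion gene, held 5 each among 44 and 36 regions, with 0 control-only regions. CTNNA3 held 4 members and 4 control-only regions among 72. The noncoding genes PCAT1 and LINC01322 held 5 each among 32 and 30 regions, with 2 and 1 control-only regions. NAALADL2, STPG2 and DOCK3 held 4 each among 76, 63 and 53 regions, with 1, 2 and 0 control-only regions. Over all regions, 5.86% were members and 2.62% control-only, and these genes were picked for their counts of members. The very long fragile-site genes as a list held 41 members among 766 regions, or 5.35%, with members in 17 of 24 genes.

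Across chromosomes, members made up between 4.77% of regions on chromosome 22 and 7.40% on chromosome 17 among the autosomes. The 95% Wilson interval was 6.41 to 8.53 on chromosome 17 and 3.38 to 6.69 on chromosome 22. Against control-only regions, members were most numerous on chromosome 19 with 4.42 to 1, chromosome 17 with 4.22 to 1 and chromosome 16 with 3.85 to 1, and least on chromosome 7 with 1.71 to 1. Of the mitochondrial regions, 0 of 5 were members. Per Mb of autosome, members ranged from 0.359 on chromosome 18 to 2.13 on chromosome 17, and all regions from 6.84 on chromosome 18 to 33.7 on chromosome 3.

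Members were spread over 1961 of 3113 windows of 1 Mb, with a mean of 1.37 a window, and made up 5.86% of all regions. The windows named here were picked for their counts of members. The densest, chr14:53000001-54000000, held 10 members among 58 regions, in an interval with DDHD1, ERO1A and FERMT2. The next, chr11:85000001-86000000, chr5:37000001-38000000, chrX:74000001-75000000 and chr5:77000001-78000000, held 9 each among 71, 67, 66 and 48 regions. The chr11 window includes the start of DLG2 and the Polycomb gene EED. The window chr5:37000001-38000000 includes the cohesin loader gene NIPBL and GDNF, a neurotrophic factor gene.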

How the data were processed

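The authors aligned paired-end reads to hg19, removed duplicates and called peaks in each immunoprecipitated library with MACS2 at a p of 1e-05, and the submitters' processing notes name Bowtie2 2.3.5 and SAMtools 1.9. The deposited lists give fold enrichment as a ratio, −log10 p and −log10 q at the summit, and a score that the authors' caller set from −log10 p. The deposited fold and −log10 p gave back the pileup and background of each summit, whole within 0.02 for 100% of peaks, except for 5 peaks in each list whose p was too small. Depth is known only through this background, and read totals were not used here. Groups came from sample titles. The members and lists were chosen with earlier results of these data known.

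Peaks were merged and annotated in Python 3.11.15 with pandas 2.3.3, pysam 0.24.0, numpy 2.4.6 and scipy 1.17.1, drawn with matplotlib 3.10.9 and indexed with samtools 1.23.1, the GRCh37 assembly and GENCODE v44 lifted to it. Letters of words and repeats were searched on both strands. CAGGCTGG overlaps GGCTGGAGT, and an adenine run of at least 20 is also a purine tract. Genome windows were 57175 windows, 1 every 50000 bp. Steps were checked on simulated peaks, which returned 200 of 200 planted regions in every class. Named genes were those of highest lower fold of the pair (12 promoters, 8 exons, 8 regions of any kind), the 10 genes with most members, and at most 6 genes a list. Some named genes and sequences are not reported here. The results were recomputed with lists of equal length, with peaks of −log10 q 5 or more, with other overlaps, windows and promoters, with a replicate block and with 1 library left out at a time.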

Additional observations from a re-analysis of the deposited data

How the results depend on the processing

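The number of regions moved most with list length and with the libraries used. It was 2550 with lists of equal length, and without 1 library it ranged from 6855 to 16231, since a rule over fewer libraries is easier to meet. It lay between 4016 and 4251 under a −log10 q of at least 5, chromosomes 1 to 22, X and Y, an overlap of 50% of each peak and merging within 500 bp. Lists of equal length also moved median fold to 7.16, median GC content to 35.5%, the CAGGCTGG share to 11.6%, the CA repeat share to 5.65% and the share with a control peak within 1000 bp to 6.63%. That last share was 15.7% with an overlap of 50% of each peak, 5.08% with merging within 500 bp and 25.3% within 5000 bp. Median GC content was 35.5% for peaks of −log10 q 5 or more and for an overlap of 50%. Without 1 library, the ranges were 5.55% to 7.03% for a control peak within 1000 bp, 40.1% to 41.4% for intergenic summits, 35.5% to 37% for median GC content, 12% to 17.2% for CAGGCTGG, 30.1% to 36% for adenine or thymine runs, 4.93% to 5.75% for CA repeats and 5.94 to 6.62 for median fold. Windows of 100 bp gave 34% for median GC content, 4.87% for CAGGCTGG, 24.4% for runs and 3.79% for CA repeats, and windows of 400 bp gave 37.8%, 23.3%, 40.6% and 6.35%. Promoters from 2000 bp upstream to 500 bp downstream held 2.56%. With si-N6AMT1 replicate 2 scaled in place of replicate 1, 92.3% passed at the depth of control replicate 1 and 97.8% at that of replicate 2. Within a best −log10 p of 10 to 15, an alternative chosen after seeing the data, the shares were 15.3% for CAGGCTGG and 4.22% for CA repeats.

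In regions called in 1 library alone, 2 features turned direction. The GATC difference, si-N6AMT1 minus control, was -0.344 percentage points with lists of equal length. The promoter difference, -0.154 in the full lists, was 0.0632 with lists of equal length, and ranged from -0.555 to 0.218 without 1 library. With the replicate number as a replicate block, the 5.19 points for CAGGCTGG, like the 0.265 fragments of background, had an exact paired sign-flip p of 0.5, the smallest that 2 pairs allow. The labels give the numbers no meaning beyond a name, and whether they pair the libraries was not tested. With 4 libraries the exact tests used here could not pass the threshold, and pileups of about 17 fragments limit single calls.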
